A study of Mus musculus with 28 samples.

Results

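The genes described here are those of mouse embryonic stem cells whose start lay within 2 kb, on either side, of a region of H3K9me3 that depends on KAP1. H3K9me3 is histone H3 trimethylated at lysine 9, a mark of silent chromatin, and the regions are those the study deposited as lost without KAP1. A gene start was taken from the counted gene model by strand, and an overlap of 1 bp with the window was enough. By this rule 734 of 37991 genes were chosen, at 726 of 14445 regions, and they are called the members. No RNA or 5hmC value entered the choice.

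All libraries came from the J1 line of strain 129S4/SvJae, kept naive in medium with LIF and inhibitors of MEK and GSK3. Cells were wild type (WT), lacked Dnmt1, Dnmt3a and Dnmt3b (DNMT TKO) or lacked Tet1, Tet2 and Tet3 (TET TKO). By the study's methods the DNMT TKO and TET TKO cells were obtained from different research groups, so genotype and origin of the line cannot be told apart. Every culture was transduced with an empty hairpin vector (shEmpty) or a hairpin against Kap1 (shKap1), selected with puromycin and collected at day 5, so the controls carry a vector too. RNA-seq held 16 libraries in 6 groups, with n = 3 for both WT and both DNMT TKO groups and n = 2 for both TET TKO groups. Hydroxymethylated DNA immunoprecipitation (hMeDIP), which enriches DNA with 5-hydroxymethylcytosine (5hmC), gave 1 usable 5hmC library and 1 input for each hairpin in WT. RNA replicates came from independent experiments, by the study's methods. Whether each knockout is 1 clone is not given in the sources used here, so the p-values cover the spread between experiments with a line and not between lines.

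KAP1, the product of Trim28, is brought to DNA by KRAB zinc finger proteins and recruits SETDB1, which writes H3K9me3. Its best known targets are endogenous retroviruses and imprinting control regions, where the mark goes together with methylated DNA. H3K4me3, in contrast, marks active or poised gene starts. DNMT enzymes set DNA methylation, and TET enzymes oxidise it to 5hmC.

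The 250 bases ahead of 4 starts are shown. They were taken from named members found in RefSeq, the largest rises in WT first, with at least 1 that carried H3K4me3. They were read from the mm9 genome on the strand of the gene, 5′ to 3′, with each CG in capitals. The first 3 starts lacked H3K4me3 and the fourth carried it. The 3110007F17Rik stretch lies within an annotated endogenous retrovirus (MMERVK10C) on the opposite strand, and most of the Cml2 stretch within another (ETnERV). Gm12865 is at chr4:118669804-118670053 on the minus strand with 6 CG, Sult2a4 at chr7:14574975-14575224 on the minus strand with 3 CG, Cml2 at chr6:85819153-85819402 on the minus strand with 4 CG, and 3110007F17Rik at chrX:120216854-120217103 on the plus strand with 21 CG.
Gm12865: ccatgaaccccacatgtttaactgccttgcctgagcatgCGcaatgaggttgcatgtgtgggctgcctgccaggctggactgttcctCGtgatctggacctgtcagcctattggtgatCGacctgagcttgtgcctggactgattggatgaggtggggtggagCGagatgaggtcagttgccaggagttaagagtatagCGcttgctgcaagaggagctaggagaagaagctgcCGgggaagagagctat
Sult2a4: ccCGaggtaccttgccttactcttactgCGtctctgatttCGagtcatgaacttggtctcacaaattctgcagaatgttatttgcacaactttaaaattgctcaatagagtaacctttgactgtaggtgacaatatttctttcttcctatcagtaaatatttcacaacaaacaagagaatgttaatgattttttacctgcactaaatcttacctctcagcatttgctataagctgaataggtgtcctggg
Cml2: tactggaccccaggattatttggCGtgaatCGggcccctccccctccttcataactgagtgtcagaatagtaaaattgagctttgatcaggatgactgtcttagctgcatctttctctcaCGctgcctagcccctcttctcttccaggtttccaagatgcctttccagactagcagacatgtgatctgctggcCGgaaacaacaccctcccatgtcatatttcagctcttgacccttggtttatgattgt
3110007F17Rik: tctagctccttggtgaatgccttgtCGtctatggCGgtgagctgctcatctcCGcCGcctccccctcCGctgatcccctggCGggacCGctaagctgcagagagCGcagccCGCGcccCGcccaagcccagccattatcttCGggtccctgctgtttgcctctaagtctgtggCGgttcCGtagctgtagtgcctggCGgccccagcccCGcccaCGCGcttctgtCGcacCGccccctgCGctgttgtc

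From 250 bases before to 50 bases after the start, the members held a median of 4 CG against 6 over all genes. The 142 members with a deposited H3K4me3 peak within the window held a median of 18.5 CG, against 19 over all genes with that mark. The other 592 members held 3, as did all genes without the mark. The letters TGCCGC or, on the other strand, GCGGCA, the core bound by ZFP57, were found in 6.81% of member starts and in 10.3% of all starts. Within starts with H3K4me3 the shares were 14.8% and 19%, and within starts without it 4.9% and 3.49%.

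Members were often pseudogenes. Of the 734, 281 were protein coding (38.3%, against 58.8% of all genes), 238 were pseudogenes (32.4% against 13.7%), and the rest were mainly processed transcripts, small RNAs and lincRNAs. H3K4me3 lay at 19.3% of the members and at 43.6% of all genes. H3K27me3, the Polycomb mark, lay at 8.72% of members and 14.3% of all genes. A KAP1 region lay within the window of 59.3% of members and of 4.61% of all genes. The start itself was inside the region for 242 members, while the nearest region was upstream for 282 and downstream for 210. Neighbouring genes shared regions, and 114 members had a nearest region in common with another member, so members are not independent of each other.

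The densest stretches were on chromosomes 4 and 13. On chromosome 4 the 3 Mb from 145 Mb held 12, 12 and 6 members per Mb, and on chromosome 13 the Mb from 66 Mb held 9. The Mb from 66 Mb on chromosome 7 held 8 members, none with enough reads to test.

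Members were weakly transcribed in control cells. With 18108431 to 29373696 reads on genes per library, 249 members had no read in any library and 145 had 1 to 15 reads. A test was made for the 340 with 16 reads or more in total, 46.3% of members against 53.5% of all genes. A gene could pass this filter through shKap1 libraries alone, so the tested members are not all members. Their median level in WT shEmpty was 0.608 CPM (counts scaled to the library's effective size), against 7.1 for all genes tested, and 54.4% of them against 33.8% of all lay under 1 CPM. Tested members with H3K4me3 (n = 120) had a median of 9.65 CPM and those without it (n = 220) of 0.184 CPM.

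The hairpin and the genotypes were visible in their target genes. Trim28 fell from 1990, 1640 and 1630 CPM to 190, 156 and 149 CPM in WT, by 3.41 ± 0.16 on the log2 scale (SE). In DNMT TKO shKap1 it was at 327, 448 and 506 CPM, a smaller fall (2.13) than in WT by 1.28 ± 0.21 (adjusted p = 0.0008). In TET TKO it fell by 3.47. Dnmt1, Dnmt3a and Dnmt3b were lower in DNMT TKO shEmpty than in WT shEmpty (log2 -1.65, -3.04 and -2.64), and Tet1 and Tet2 in TET TKO (-1.49 and -2.16), while Tet3 was not (-0.03). RNA of a targeted gene can persist after a deletion. Tet3 rose by 1.80 on knockdown in WT. Marker lists moved with the knockdown too. The sum of 10 naive ES cell markers ranged from 3840 to 4020 CPM in WT shEmpty and from 2230 to 2380 CPM in shKap1, and 5 of the 10 fell in WT. Of 8 primitive endoderm markers 3 fell and 1 rose in WT, with sums of 92.7 to 113 and 26.7 to 28.8 CPM. Of 8 trophoblast markers 4 rose and 1 fell, with sums of 45.6 to 69.2 and 86.8 to 96.5 CPM, while the sums overlapped between hairpins in both mutants. Of 6 tested fibroblast markers 2 rose and 1 fell, with sums between 3.25 and 5.5 CPM in WT, while in DNMT TKO the sums were 5.43 to 8.29 CPM with shEmpty and 10.9 to 11.8 CPM with shKap1. No marker was at 0 in every library, and the part of these shifts in the members' changes was not tested. In bulk RNA, fewer cells of a type and less RNA per cell cannot be told apart.

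Kap1 knockdown in WT raised 125 of the 340 tested members (36.8%) and lowered 8 (2.35%), calls being an adjusted p below 0.05 in edgeR's quasi-likelihood test with a change of at least 2-fold. Over all genes the same calls took 10.8% upward and 6.54% downward. The median log2 change was 0.71 over members (quartiles 0.02 and 2.59) and -0.01 over all genes tested, and 258 members lay above 0. For 40 members 1 of the groups held no read, so that a fitted change depends on the prior count. With those genes at a bound set by a floor of 3 reads, the median was 0.6. Of the 125 that rose, 92 were under 1 CPM in WT shEmpty and 24 had no read there.

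Members rose with and without H3K4me3 at the start. With the mark 45 of 120 rose (37.5%) and 4 fell, against 8.04% and 6.18% of all genes with H3K4me3. Without it 80 of 220 rose (36.4%) and 4 fell, against 17.5% and 7.41% of all genes without H3K4me3. The median log2 changes were 0.54 and 0.84. In the plot of cumulative changes the curves of both member sets lie to the right of those of all genes with the same mark.

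**Figure D1:**
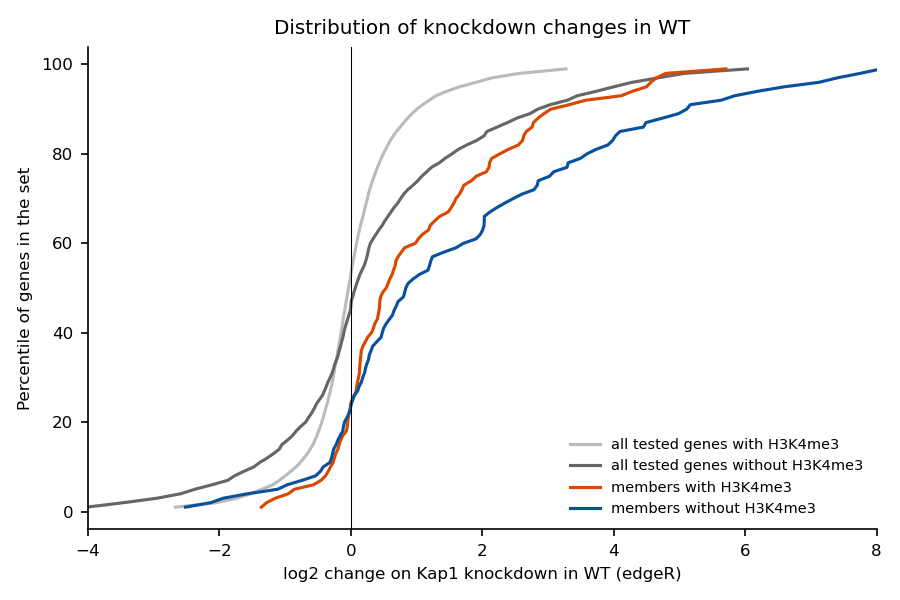
Cumulative distribution of the log2 change on Kap1 knockdown in WT (x axis, edgeR fit) against the percentile of genes in each set (y axis), for tested members with H3K4me3 (n = 120) and without it (n = 220), and for all tested genes with and without H3K4me3 (n = 14357 and 5964). The member curves cross the 50th percentile at 0.54 and 0.84, and the curves of all genes do so near 0.

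The share that rose varied with the place of the region, a difference that was not tested. Where the start was inside the region 49 of 117 tested members rose (41.9%, median log2 change 0.95), and where the region was within 1 kb but not over the start 39 of 91 did (42.9%, median 1.20). At 1 to 2 kb 37 of 132 rose (28%, median 0.35). Genes that just missed the rule, with a region at 2 to 5 kb, rose in 90 of 376 cases (23.9%, median 0.34). With a KAP1 region in the window 74 of 196 rose (37.8%, against 15.8% of all genes with one), and without it 51 of 144 (35.4%, against 10.5%). Among protein-coding members 79 of 192 rose (41.1%, against 11.3% of all protein-coding genes), and among pseudogenes 27 of 102 (26.5%, against 7.2%).

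The largest rises were of genes near silence in control cells. Cml2, which belongs to a family of N-acetyltransferase-like genes (camello-like, chr6:85815416-85819152, minus strand), stood at 0.889, 1.17 and 1.10 CPM in WT shEmpty and at 159, 257 and 262 CPM in WT shKap1. This is a log2 change of 7.71 ± 0.30 (SE, adjusted p = 8.3e-10). Genes were named for a rise only where the groups did not overlap. Its paralog Cml3 (chr6:85710643-85715738, minus strand) had no read in WT shEmpty and 1.21, 3.68 and 3.84 CPM in shKap1, at least 73.2-fold higher (adjusted p = 1e-06). Gm4477 lies in the same cluster and went from no read to 0.262, 0.52 and 0.906 CPM, at least 13.8-fold higher. Only uniquely mapped reads were counted, so levels of such close copies are uncertain.

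Abp1, which encodes the histamine-degrading diamine oxidase, had 3 reads over the WT shEmpty libraries (0, 0.0712 and 0.0354 CPM) and 9.59, 13.4 and 14.6 CPM in shKap1. The ratio of reads was 312, with a 95% counting interval from 106 to 1510 (adjusted p = 3.6e-06), and the fitted log2 change went from 8.10 to 8.86 without WT shEmpty replicate 2. In DNMT TKO shKap1 it stood at 6.0, 0.894 and 1.30 CPM, the first library apart from the other two. Cd209c, a C-type lectin receptor gene of the DC-SIGN group, had 1 read in WT shEmpty and 1.47, 1.95 and 1.97 CPM in shKap1 (adjusted p = 4.9e-08), 134-fold higher with a counting interval from 23.6 to 5350. Its fitted log2 change went from 6.59 to 8.38 without WT shEmpty replicate 3, which held that read. In TET TKO shKap1 it reached 5.79 and 5.03 CPM, but in DNMT TKO shKap1 only 0.0961, 0.188 and 0.111 CPM. The difference of its knockdown effect between DNMT TKO and WT did not pass the test (log2 -3.73, adjusted p = 0.27).

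Sult2a4, a member of a sulfotransferase family for steroids and bile acids, had no read in WT shEmpty and 0.944, 1.34 and 1.17 CPM in shKap1, at least 28.9-fold higher (adjusted p = 3.2e-08). Its level in DNMT TKO shKap1 was 6.20, 5.27 and 6.34 CPM. Gm12865, whose upstream bases are printed above, went from no read to 1.36, 1.30 and 1.12 CPM, at least 31.3-fold higher (adjusted p = 4e-07). Gm16572, a processed transcript, went from no read to 1.57, 2.17 and 2.35 CPM in WT, at least 50.5-fold higher, and stood at 22.2, 18.5 and 17.9 CPM in DNMT TKO shKap1, where its log2 change of 8.08 was 8.72 without DNMT TKO shEmpty replicate 3. Gm14149 went from no read to 0.577, 1.30 and 1.12 CPM in WT, at least 25.2-fold higher, and to 1.90 and 1.23 CPM in TET TKO. In DNMT TKO shKap1 it was at 0.048, 0.047 and 0 CPM, under every WT shKap1 library. Gm17462 and Skiv2l-ps1 also had no read in WT shEmpty and were at least 20.3-fold and 17.9-fold higher in shKap1, and Gm17672 went from no read to 0.577, 0.65 and 1.12 CPM. The models of Gm17462 and Gm17672 lie wholly within integrants of IAPEz, an endogenous retrovirus family, so their reads may be those of the integrants.

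**Figure D2:**
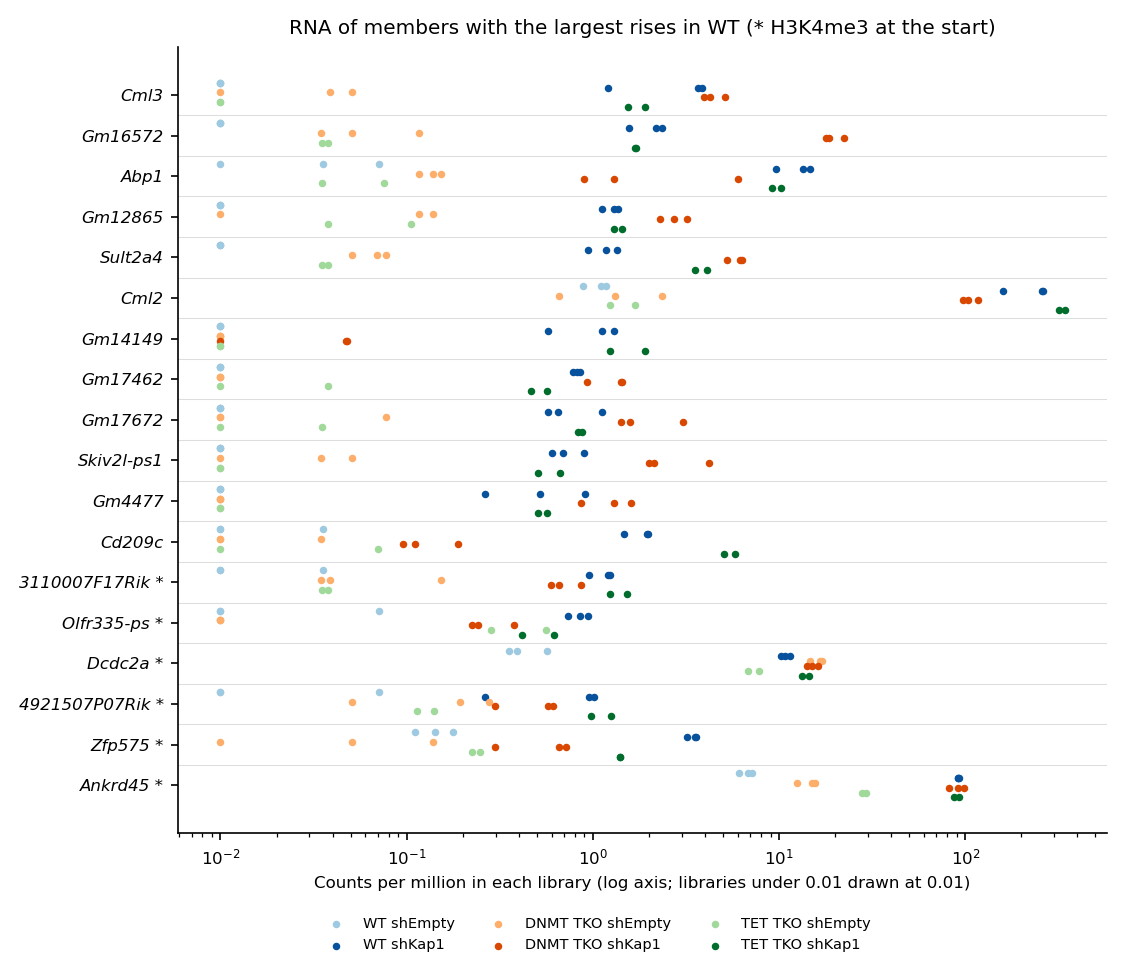
CPM in each RNA library (x axis, log scale, with values under 0.01 drawn at 0.01) for the 12 members with the largest rises in WT and the 6 with H3K4me3 (starred). Light points are shEmpty and dark points shKap1, by genotype. In WT the dark points lie to the right of the light ones for every gene shown, which the rule that chose these genes required.

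Members with H3K4me3 rose from a wide range of levels. Ankrd45, an ankyrin repeat gene, went from 6.11, 6.80 and 7.15 CPM to 91.6, 91.2 and 92.2 CPM in WT (log2 3.77 ± 0.09, adjusted p = 1.2e-14). Zfp575, a zinc finger gene, went from 0.111, 0.142 and 0.177 CPM to 3.2, 3.59 and 3.52 CPM (4.50 ± 0.38, adjusted p = 3.2e-08). Groups without overlap were a condition for naming both genes. 3110007F17Rik had 1 read in WT shEmpty and 1.21, 0.953 and 1.23 CPM in shKap1 (adjusted p = 2.6e-07), an 83-fold ratio with a counting interval from 14.4 to 3330. Olfr335-ps, a pseudogene of an olfactory receptor, and 4921507P07Rik had 2 reads each in WT shEmpty, with ratios of 31.1 (8.19 to 264) and 28.1 (7.34 to 239). Without WT shEmpty replicate 2, which held a read of each of these 3 genes, their fitted log2 changes went from 5.91, 4.72 and 4.55 to 7.71, 7.29 and 7.13.

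The 8 members that fell in WT were few but some were abundant. Gm6792 fell from 46.5, 32.6 and 32.7 CPM to 6.40, 5.59 and 6.08 CPM, a log2 change of -2.63 ± 0.13 (adjusted p = 5e-11). Aplp1, which encodes an amyloid precursor-like protein of neurons, fell from 43.3, 56.8 and 60.5 CPM to 22.5, 21.6 and 19.8 CPM (-1.33 ± 0.14, adjusted p = 7.2e-07). In TET TKO both Aplp1 groups lay between 22.2 and 23.4 CPM. Tmem181b-ps fell by 1.37 on the log2 scale and the weakly expressed Gm12892, Gm9847 and Gm13240 by 2.07, 1.91 and 1.60. Gm13240 lost its call without WT shKap1 replicate 3 (log2 -1.20, adjusted p = 0.068).

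Members with the highest level per kb of exon in WT shEmpty were not called changed on knockdown in WT. They were Gm15459 (448 CPM per kb) and Rpl19-ps11 (242), then Mif, a cytokine gene (169), Gm15487 (116), the V-ATPase subunit gene Atp6v1e1 (112), Grinl1a (106), Gm5805 (99.6) and Rrn3, a factor of RNA polymerase I (97.6). Their log2 changes in WT ran from -0.20 to 0.15. For processed pseudogenes, reads of the parent gene may be counted in the copy.

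Imprinted genes were among the members. Of 40 tested genes on a list of imprinted genes, 15 rose and 2 fell in WT, and 5 of the list were members. H19, a maternally expressed long noncoding RNA, went from 1.22, 2.38 and 2.90 CPM to 15.5, 11 and 10.7 CPM in WT (log2 2.47 ± 0.22, adjusted p = 7e-08). In DNMT TKO it was lower without knockdown, at 0.254, 0.276 and 0.231 CPM, and reached 0.576, 0.799 and 0.742 CPM in shKap1. Peg10, a paternally expressed gene derived from a retrotransposon, went from 166, 255 and 264 CPM to 2540, 1130 and 1050 CPM (2.79 ± 0.31, adjusted p = 2.6e-05). The first shKap1 library was over 2 times the other two, yet all lay above shEmpty. In DNMT TKO shEmpty Peg10 was at 27, 25 and 23.6 CPM and in TET TKO shEmpty at 39.2 and 35.9 CPM, below WT by 3.18 and 2.60 on the log2 scale. Its rise in DNMT TKO, 1.16, was smaller than in WT by 1.62 ± 0.44 (adjusted p = 0.026).

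Sgce, the paternally expressed neighbour that shares its region with Peg10, rose by 2.10 ± 0.22 in WT, and its effect in DNMT TKO was smaller by 1.63 (adjusted p = 0.011). Both genes lie on chromosome 6, where the median of all genes was lower in DNMT TKO by 0.29. Inpp5f, a phosphoinositide phosphatase gene with an imprinted isoform, went from 10.5, 11 and 11.7 CPM to 39.3, 39.7 and 42.4 CPM in WT (1.87 ± 0.09, adjusted p = 4.4e-11). In DNMT TKO it stood at 36.5, 35.4 and 39.5 CPM without knockdown and at 35.7, 42.7 and 42.1 CPM with it, so that those groups overlap. The difference of effects was -1.75 ± 0.13 (adjusted p = 3.6e-08). The region in the window of Inpp5f held an IAPEz integrant (chr7:135748121-135753575). The imprinting control region that the study lists for the isoform Inpp5f_v2 lies outside that window. Nespas, an imprinted antisense RNA of the Gnas locus, went the other way, from 6.72, 6.80 and 5.41 CPM to 2.52, 2.90 and 3.36 CPM (-1.11 ± 0.19, adjusted p = 0.00012), and without WT shKap1 replicate 1 its change was under 2-fold (-0.99).

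A list of genes of the 2-cell embryo held 2 members. Of its 21 tested genes 19 rose in WT and none fell. Dux, a transcription factor of the 2-cell stage, went from 0.0555, 0.32 and 0.389 CPM to 2.62, 4.50 and 5.60 CPM in WT (log2 3.90 ± 0.38, adjusted p = 1.8e-07), by 5.14 in DNMT TKO and by 5.86 in TET TKO. Tdpoz3, of a family with TRAF and BTB domains, went from 0.777, 1.07 and 0.991 CPM to 19.4, 21.0 and 20.6 CPM in WT, and from 0.74 and 0.376 CPM to 60.9 and 61.8 CPM in TET TKO. Its effect in TET TKO was larger than in WT by 2.36 ± 0.42 (adjusted p = 0.0015). Dux copies lie in a tandem repeat array, so levels from unique reads are uncertain.

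Zinc finger genes, many of which encode the KRAB proteins that bring KAP1 to DNA, numbered 18 members, 17 of them tested. On knockdown in WT 8 rose and none fell, with a median log2 change of 0.85, against 46 of 384 tested genes that rose over the whole name pattern and a median of 0.21. Zfp629 went from 3.17, 3.10 and 3.68 CPM to 27.8, 26.5 and 26.5 CPM (log2 3.02 ± 0.16, adjusted p = 8.1e-11). Zfp809, whose protein silences retroviruses that use a proline tRNA primer, went from 22.3, 19.7 and 19.5 CPM to 54.6, 60.5 and 62.0 CPM (1.53 ± 0.11, adjusted p = 1.1e-08). In DNMT TKO shEmpty Zfp809 was already at 51.1, 60.3 and 60.2 CPM. Zfp280d, Zfp125, Zfp772, Zfp882 and Zfp934 rose by 1.20, 1.64, 1.37, 1.19 and 1.17. Zfp951, at 7.5, 5.41 and 6.44 CPM in WT shEmpty and at 7.39, 7.58 and 5.70 CPM in WT shKap1, was higher by 2.90 in DNMT TKO shEmpty. Zinc finger members other than Zfp575 and Zfp809 were named as the members of this pattern with their values in view. Zfp809 was also the only member on a list of 30 tested genes of KAP1 heterochromatin (4 up and 2 down in WT), and no member was among 34 tested germline genes (8 up, 7 down).

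In the knockouts members rose again on knockdown. In DNMT TKO 90 of 340 rose (26.5%) and 3 fell (0.882%), against 10.1% and 2.42% of all genes, with a median log2 change of 0.46. With H3K4me3 19 of 120 rose (15.8%, against 6.99% of all genes with the mark), and 71 of 220 without it rose (32.3%, against 17.4%). Without TET enzymes 107 of 340 rose (31.5%) and 3 fell, against 8.05% and 4.46% of all genes, with a median of 0.48. With H3K4me3 35 of 120 rose (29.2%, against 5.22%) and without it 72 of 220 (32.7%, against 14.9%). The 3 falls in TET TKO became 1 without TET TKO shKap1 replicate 1. Genes just outside the rule, with a region at 2 to 5 kb, rose in 97 of 376 cases in DNMT TKO (25.8%) and in 80 in TET TKO (21.3%), and members with a region at 1 to 2 kb in 17.4% and 20.5%. The share of members in DNMT TKO was thus close to that of genes just outside the rule, and no difference between these shares was tested. Of the 125 members up in WT, 59.2% were also up in DNMT TKO and 71.2% in TET TKO, against 52.1% and 51% of all genes up in WT. Of the members up in DNMT TKO 82.2% were up in WT, and of those up in TET TKO 83.2%, against 56.1% and 68.6% of all genes up there. In all, 61 members rose in all 3 genotypes and 154 in at least 1 (39.6%, against 23.5% of all genes up in at least 1). These differences in overlap were not tested. The 3 genotypes share no library, but the WT and DNMT TKO shEmpty libraries of the same number deviated together (correlations from 0.138 to 0.32 over genes), so these lists are not fully independent.

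The knockdown effect itself differed from WT for 31 members in DNMT TKO. The log2 difference, mutant minus WT, was positive for 5 (1.47%, against 4.66% of all genes) and negative for 26 (7.65%, against 2.48%). These shares were not adjusted for how often a set rose in WT, 36.8% of members and 10.8% of all genes. Beside 125 rises in WT members had 26 negative differences, and beside 2200 rises all genes had 504. Among members with H3K4me3, 16 of 120 had a negative difference (13.3%, against 2.35% of all genes with the mark). A positive one was found for 1 (0.833%, against 4.37%). Among members without the mark 10 of 220 had a negative difference (4.55%, against 2.8%) and 4 a positive one (1.82%, against 5.33%). Trim28 was lowered less in DNMT TKO, as given above, and its part in these counts was not tested. In TET TKO 10 members had a positive difference (2.94%, against 2.08%) and 16 a negative one (4.71%, against 2.13%), 26 in all. That total rests on few libraries, since it was 17, 13, 16 and 15 without TET TKO shEmpty 1, shEmpty 2, shKap1 1 and shKap1 2, and 17 without WT shEmpty replicate 3. A positive difference can be a weaker fall, as for Gm6792 (log2 -2.63 in WT, -0.88 in TET TKO) and Aplp1 (-1.33 and -0.05).

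**Figure D3:**
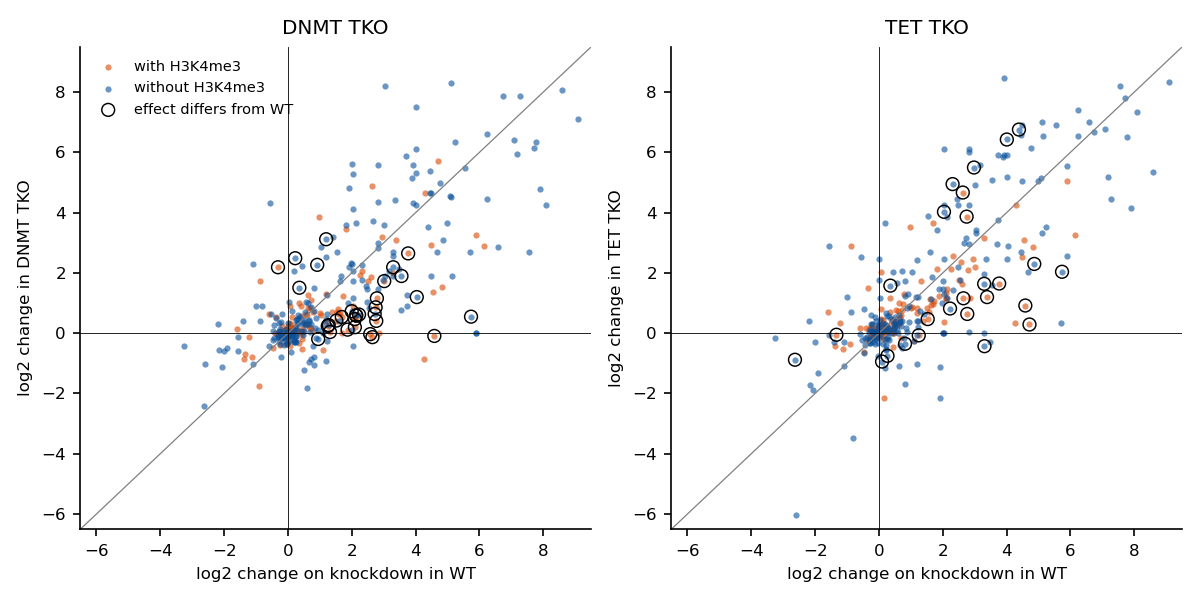
Log2 change on knockdown of each tested member (n = 340) in WT (x axis) against DNMT TKO (left, y axis) and TET TKO (right, y axis), coloured by H3K4me3, with the line of equal change. Circles mark the 31 and 26 members whose effect differed from WT, and in DNMT TKO 26 of the 31 lie below the line. Points of genes with no read in a group depend on the prior count of the fit.

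Dcdc2a, a doublecortin domain gene with H3K4me3, had the smallest adjusted p of the named differences in both mutants. In WT it went from 0.389, 0.569 and 0.354 CPM to 11.4, 10.8 and 10.2 CPM (log2 4.59 ± 0.17, adjusted p = 1.1e-12). In DNMT TKO it stood at 14.6, 16.6 and 16.9 CPM without knockdown and at 15.1, 14.1 and 16.1 CPM with it, and in TET TKO it went from 7.75 and 6.83 CPM to 13.3 and 14.4 CPM. Thus the control libraries of both mutants lay far above those of WT, and the shKap1 libraries of all 3 genotypes lay close together. The effect was smaller than in WT by 4.68 ± 0.21 in DNMT TKO (adjusted p = 2.4e-10) and by 3.67 ± 0.23 in TET TKO (adjusted p = 2e-08).

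Lekr1, with H3K4me3 at its start, went from 0.555, 0.462 and 0.46 CPM to 3.51, 2.73 and 3.04 CPM in WT, but from 2.18, 2.28 and 2.27 CPM to 2.64, 1.65 and 1.89 CPM in DNMT TKO, where the groups overlap. The difference was -2.78 ± 0.33 (adjusted p = 1.4e-05). Pxt1, a testis-specific gene of peroxisomes, went from 0.111, 0.0712 and 0.0354 CPM to 0.839, 1.34 and 1.39 CPM in WT and from 0.965, 1.24 and 1.62 CPM to 2.74, 2.49 and 3.6 CPM in DNMT TKO, a smaller effect by 2.85 ± 0.54 (adjusted p = 0.0011). The model of Gm8113 lies wholly within an endogenous retrovirus integrant (IAPEY4) on its strand, so its reads may be those of the integrant. In Gm8113 the values were 0, 0.0356 and 0 CPM against 0.996, 0.736 and 1.28 CPM in WT, but 0, 0.173 and 0.116 CPM against 0.0961, 0.0941 and 0.26 CPM in DNMT TKO (adjusted p of the difference = 0.0053). Those differences have baseline and knockdown values in common, since a higher shEmpty level in the mutant lowers its effect by construction.

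Ankrd45 had a smaller effect in both mutants, at 12.5, 15.6 and 15 CPM in DNMT TKO shEmpty and 28.0 and 29.2 CPM in TET TKO shEmpty against 6.11 to 7.15 CPM in WT. Its shKap1 libraries lay between 81.6 and 98.8 CPM in every genotype.

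Positive differences were fewer. Angptl6, which encodes a secreted angiopoietin-like protein, stood at 6.39, 10.2 and 12.1 CPM in WT shEmpty and at 6.45, 8.31 and 8.69 CPM in WT shKap1, with overlapping groups. In DNMT TKO it went from 2.03, 2.69 and 2.27 CPM to 12.6, 9.83 and 9.79 CPM, a larger effect by 2.49 ± 0.28 (adjusted p = 8.2e-06). H2-Q6, a nonclassical MHC class I gene, went from 0.167, 1.17 and 1.03 CPM to 4.46, 5.50 and 5.81 CPM in WT and from 0.388 and 0.413 CPM to 11 and 9.7 CPM in TET TKO, larger by 2.04 ± 0.56 (adjusted p = 0.027). Close paralogs of H2-Q6 share its sequence, so its level is uncertain. Nefm, the medium neurofilament gene, fell in DNMT TKO from 56.2, 35.4 and 32.7 CPM to 13.4, 12.4 and 11.1 CPM (-1.75 ± 0.26, adjusted p = 0.00014). In WT it stood at 16.2, 10.2 and 9.09 CPM against 8.96, 4.85 and 5.01 CPM (-0.90, adjusted p = 0.018, under 2-fold), and the difference of its effects did not pass the test (-0.85, adjusted p = 0.15).

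With KAP1 present, 50 members were higher (14.7%) and 21 lower (6.18%) in DNMT TKO than in WT, against 8.23% and 8.05% of all genes. In TET TKO 35 were higher (10.3%) and 19 lower (5.59%), against 5.66% and 4.8%. Both comparisons use the same WT shEmpty libraries. Gm9008, with H3K4me3, stood at 0.555, 0.32 and 0.425 CPM in WT, at 14.3, 13.4 and 14.2 CPM in DNMT TKO and at 16.3 and 15.3 CPM in TET TKO, higher by 5.04 ± 0.17 and 5.22 ± 0.17 (adjusted p = 1.1e-13 and 3.8e-13). On knockdown it did not pass the test in any genotype (log2 0.18, -0.23 and 0.07). Gm11800, a pseudogene, had 1 read in WT shEmpty and 20.8 and 20.5 CPM in TET TKO shEmpty, 1530-fold higher with a counting interval from 275 to 60600. Its model lies wholly within an endogenous retrovirus integrant (RLTR45) on its strand, so its reads may be those of the integrant. The integrant stood at 0.167, 0.249 and 0.248 CPM in WT shEmpty and at 308 and 345 CPM in TET TKO shEmpty. In TET TKO shKap1 Gm11800 fell to 9.12 and 9.91 CPM (-1.12 ± 0.28, adjusted p = 0.0056), a call lost without TET TKO shKap1 replicate 1 (adjusted p = 0.073). Ctsk, the gene of the protease cathepsin K, and Nlrp9c, an NLR gene, had 1 and 2 reads in WT shEmpty and were 31.9-fold (5.33 to 1300) and 20.9-fold (5.45 to 179) higher in DNMT TKO shEmpty. Without the WT shEmpty library that held its 1 read (replicate 1) the fitted change of Ctsk went from 4.53 to 6.37, and that of Gm11800 (replicate 3) from 10.1 to 11.9.

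Some members were far lower in a mutant line than in WT. 2410141K09Rik stood at 45.6, 39.2 and 35.9 CPM in WT and at 45.9, 36.9 and 37.2 CPM in DNMT TKO shEmpty, but at 0.458 and 0.225 CPM in TET TKO shEmpty (log2 -6.84 ± 0.24, adjusted p = 7.6e-13, and -7.44 without TET TKO shEmpty replicate 1). Gm15487 was at 55.9, 52.5 and 54.6 CPM in WT shEmpty and at 3.45 and 2.59 CPM in TET TKO shEmpty (-4.16 ± 0.11). The neighbours G530011O06Rik and Gm15726 on chromosome X, which share their nearest region, had 176 and 94 reads in WT shEmpty and 1 each in DNMT TKO shEmpty, 177-fold (31.3 to 7010) and 94.3-fold (16.5 to 3760) lower, and both were also called lower in TET TKO. H2-Q6 went from 65 reads to 1 in DNMT TKO, 65.2-fold lower (11.3 to 2610). Without the library that held the single read (DNMT TKO shEmpty 1, 2 and 3 in turn) their fitted log2 changes went from -6.97, -6.13 and -5.50 to -8.80, -7.92 and -7.31. Over all genes the median difference of DNMT TKO from WT was -0.29 on chromosome 6, -0.18 on chromosome 8 and 0.29 on chromosome 11. Leaving out these chromosomes was a choice made after seeing the data. Then 41 of 255 tested members were higher in DNMT TKO (16.1%, against 8.06% of all genes there) and 11 lower (4.31%, against 7.89%). With all chromosomes the shares were 14.7% and 6.18% of 340 tested members, so part of the fall in the second count comes from fewer members. Of the 255 tested members then left 93 rose on knockdown in WT (36.5%), 63 in DNMT TKO (24.7%) and 76 in TET TKO (29.8%), against 11.2%, 10.1% and 8.22% of all genes on the same chromosomes.

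5hmC was measured over the same regions in WT, with 1 library of each kind per hairpin, so that no difference could be tested. Each count was divided by its library's total over all region sets after adding 1 read, and the change is the log2 of 5hmC over input in shKap1 against shEmpty. Of the 726 regions at member starts, 725 had at least 10 input reads, and their median change was 0.64 (quartiles 0.18 and 1.07), against 0.66 in 13665 regions elsewhere. A rise of at least 2-fold was seen in 208 of them (28.7%, against 31% of all regions of the set), and 11 fell as much (1.52%, against 1.77%). The counting interval of 321 regions (44.3%, against 41.2% of all regions of the set) lay wholly above 0. That of 17 lay below it, against 252 of all 14390. Whether an interval lies clear of 0 also depends on the number of reads. The 725 regions held 71029 of the 745297 shEmpty input reads of all 14390, with a median length of 1999 bp against 1799 bp. The tallies given so far hold for this scaling alone. With totals over H3K4me3 regions 73 rose by 2-fold or more (10.1%, against 13.6% elsewhere) and 28 fell as much (3.86%, against 5.01%). Of the intervals 166 lay above 0 and 48 below, against 3159 and 837 of 13665 elsewhere. Without the largest region in the totals, which is described next, 76 rose (10.5%, against 14.2%) and 26 fell (3.59%, against 4.81%). The intervals were then 177 and 47, against 3270 and 787 elsewhere. These tallies under other totals were added after seeing the data.

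Regions at starts with a KAP1 region changed by a median of 0.73 (n = 518) and those without by 0.25 (n = 207), and elsewhere the medians were 0.81 and 0.23. With H3K4me3 at the start the median was 0.62 (n = 131) and without it 0.65 (n = 594). The level of these values depends on scaling. One KAP1-independent region on chromosome 9, at chr9:3000001-3038399, took 35.9% of the 5hmC reads over the region sets with shEmpty and 22.5% with shKap1, and 20.9% and 26% of the input reads. With the region left out of the totals the median at starts was 0.27, with totals over H3K4me3 regions 0.25, and those without KAP1 turned to -0.11 and -0.13. A difference between sets is free of scaling, apart from the added read.

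For members with H3K4me3, the nearest KAP1-dependent H3K9me3 region and the nearest H3K4me3 region were paired. This gave 125 distinct pairs in which both regions had at least 10 input reads. 5hmC changed more in the H3K9me3 region in 76 of the 125 pairs, by a median of 0.26 (quartiles -0.25 and 0.68), with medians of 0.59 and 0.25. In the 77 pairs that share no base it changed more in 50, by a median of 0.31. In shEmpty, 5hmC over input had a median log2 of -0.01 in the H3K9me3 regions and -1.23 in the H3K4me3 regions.

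**Figure D4:**
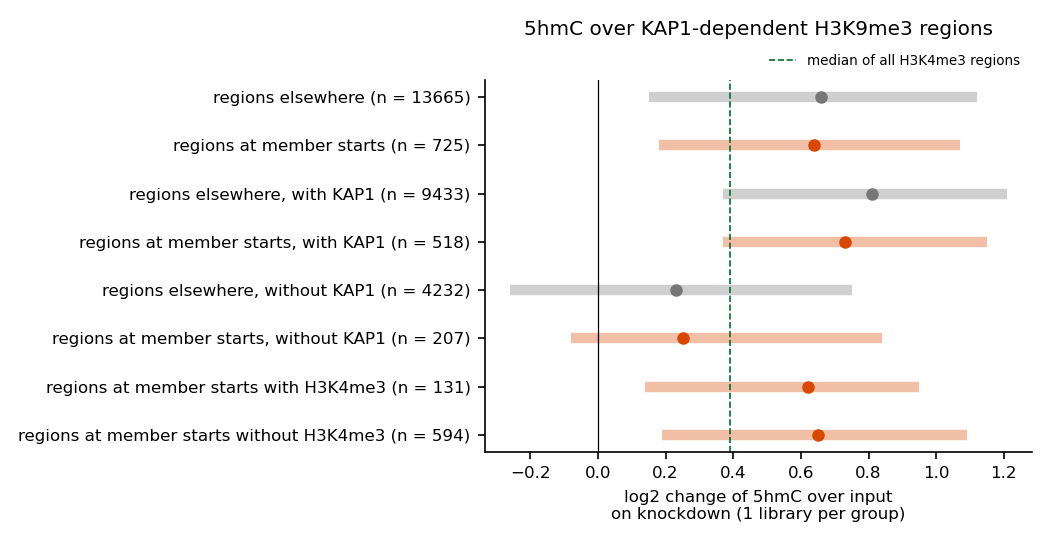
Log2 change of 5hmC over input on knockdown in WT (x axis, 1 library per group) over KAP1-dependent H3K9me3 regions, at member starts (orange) and elsewhere (grey). Points are medians, bars run from the lower to the upper quartile over regions and are no error of the median, and the dashed line is the median of all H3K4me3 regions (0.39). Regions with KAP1 have higher medians (0.73 and 0.81) than regions without it (0.25 and 0.23).

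Among starts, regions of members that rose in WT had a median 5hmC change of 0.72 (n = 130), regions of members tested without a rise 0.61 (n = 211) and regions of members not tested 0.63 (n = 384). Among risers the median was 0.62 with H3K4me3 (n = 45) and 0.88 without (n = 86). Over 339 members the RNA change and the 5hmC change of the nearest region had a Spearman rho of 0.181, as a description only, since members share regions and all values share the same 4 libraries.

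For most of the regions with the largest 5hmC changes RNA could not be compared. The region at Stxbp3b rose from 48 reads to 124 in the 5hmC libraries, over 26 and 17 input reads (log2 2.27, interval 1.29 to 3.25), while its RNA, 4.33, 4.77 and 4.88 CPM in WT shEmpty and 6.55, 8.40 and 7.78 CPM in shKap1, changed by less than 2-fold. Regions at Gm12155, AC133891.1, Gm10338 and Gm10576 changed by 2.38, 2.27, 2.19 and 2.15, and none of those genes had enough reads for a test. Gm9573, with a change of 2.17, had no read in WT shEmpty and 0.105, 0.52 and 0.16 CPM in shKap1, at least 6.92-fold higher (adjusted p = 0.0032). At the other end Gm10110, Gm5900 and a U7 copy changed by -1.73, -1.49 and -1.42. For Cml2 the change was 0.69 (0.12 to 1.26), for Gm12865 1.79 (1.07 to 2.50), and for Peg10 and Sgce, which share a region, 1.23 (0.28 to 2.17). The region of Dcdc2a, with 590 reads in shEmpty and 650 in shKap1, changed by 0.12 (-0.23 to 0.48). The intervals are of 95% and carry counting error alone, without the spread between cultures.

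The regions at member starts held 1358 repeat integrants at 645 members, and 371 integrants had enough reads for a test. On knockdown in WT 203 rose (54.7%) and 2 fell, against 12.1% and 2.05% of all integrants tested, with a median log2 change of 3.25. In DNMT TKO 222 rose (background 15%) and in TET TKO 202 (background 14.7%). IAPEz elements, young LTR retrotransposons of the mouse, rose in 66 of 80 cases in WT (82.5%), ETn elements in 20 of 24, MMERVK10C in 19 of 24 and ERV1 in 20 of 36. L1Md_A, a young LINE-1 subfamily, rose in 9 of 30 cases in WT, 7 in TET TKO and 21 in DNMT TKO. Shares of each family over the whole genome are not given here, and the background above mixes all families. The family counts are therefore not shown to be particular to gene starts. Genes and integrants that overlap can share reads, so these counts are not independent of those of the members.

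**Figure D5:**
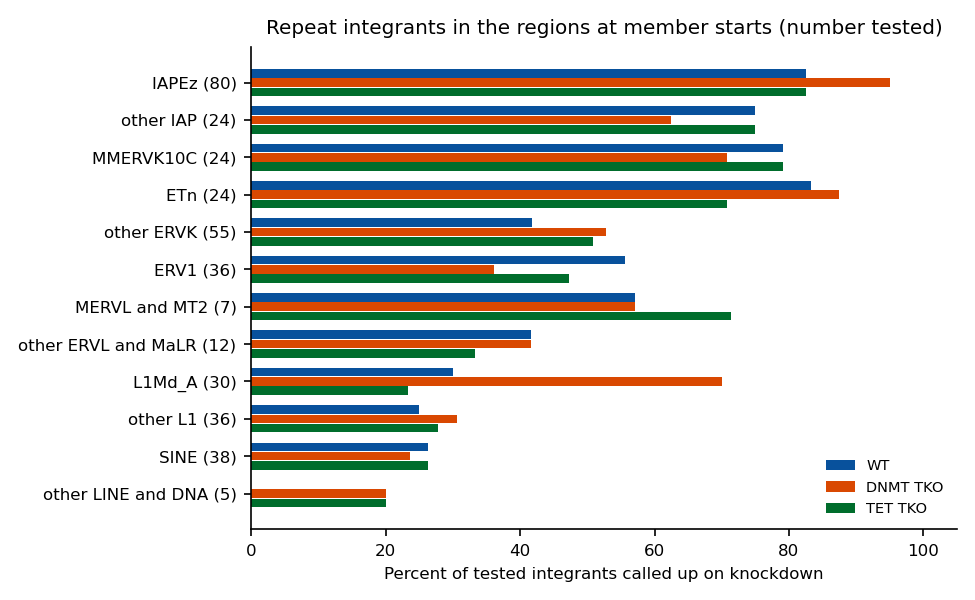
Percent of tested repeat integrants in the regions at member starts that were called up on knockdown (x axis, from 0) in WT, DNMT TKO and TET TKO, by family (y axis, number tested in brackets). IAPEz, ETn and MMERVK10C are at or above 70% in each genotype, and L1Md_A is at 70% in DNMT TKO and 30% in WT.

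A start inside an LTR element on the same strand was found for 76 members, of which 27 were tested and 13 rose in WT (48.1%, against 10.8% of all genes), with a median log2 change of 2.84. Of 184 tested members with an LTR element in the region but the start outside it, 61 rose (33.2%, median 0.53), and of 53 tested with no repeat in the region 25 rose (47.2%, median 1.10). The differences between these shares were not tested. Gm14149, Gm17462, Gm17672, Gm10040 and Gm3129 started inside an IAPEz integrant on their own strand, and Gm11331 inside an MMERVK10C one. Gm8113 started inside an IAPEY4 integrant and Gm11800 inside an RLTR45 one, also on their own strand. All of these models except Gm14149 lie wholly within the integrant, so their reads cannot be told from those of the integrant. The 13 risers include such models. The region of Gm16572 held an IAPEz integrant on its strand that went from 0, 0.107 and 0.0354 CPM to 1.42, 3.64 and 3.52 CPM in WT and reached 15.5, 14.2 and 9.9 CPM in DNMT TKO shKap1. An ETnERV integrant of 16752 reads in the region of Cml2 rose by 7.64 on the same strand.

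Integrants also rose where the gene did not. The region of Inpp5f held an IAPEz integrant on the opposite strand with no read in WT shEmpty and 11.4, 15.6 and 15 CPM in shKap1. In DNMT TKO shKap1, where Inpp5f itself did not pass the test (log2 0.12), it was at 2.35, 2.02 and 2.41 CPM, against 1 read over the shEmpty libraries. Near Gm6792 and Gm12892, which fell, integrants on the opposite strand rose. The RLTR10 one at Gm6792 had 0.315, 0.563 and 0.586 CPM in WT shKap1 against 0.0555, 0.0356 and 0 CPM in shEmpty, and the ETnERV2 one at Gm12892 had 0.419, 0.779 and 0.373 CPM against no read. In the region of Mif an MMERVK10C integrant on its strand rose by 3.88, with Mif at 102, 90.5 and 88.1 CPM in WT shEmpty and at 110, 100 and 91.3 CPM in shKap1.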

How the data were processed

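RNA-seq counts of 16 libraries, hMeDIP counts of WT cells and ChIP-seq peak lists of H3K4me3 and H3K27me3 were used, all on mm9. RNA values are read counts as deposited by the authors, who aligned with HISAT2, kept unique reads and counted them by strand, over genes with featureCounts 1.5.1 and over repeats with bedtools multicov. The submitters' processing notes give HISAT2 2.0.1 and bedtools 2.25. 5hmC values are counts that the authors deposited over region sets (KAP1, H3K9me3 dependent or not on KAP1, ICRs, H3K4me3, H3K27me3). H3K9me3 regions came from SICER 1.1, and the H3K9me3 signal itself was not analysed here. H3K4me3 peaks carry a score that the authors deposited from MACS 1.4, used in 1 alternative. H3K4me3 and H3K27me3 at a start mean overlap of the deposited regions with the same window. No column of other samples was used.

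Genes with 16 reads or more in total were fitted in edgeR 4.0.16 (R 4.3.3) with TMM factors, robust quasi-likelihood tests over all 16 libraries and Benjamini-Hochberg adjustment over all genes (20321) or integrants (123880) tested. Calls required an adjusted p below 0.05 together with a 2-fold change. CPM are counts scaled to the effective library size. Errors (SE) are approximate, being the size of the fitted log2 change divided by the square root of the test's F value. Where a group held no read a fold is a lower bound against 3 reads over the group, and with 1 to 3 reads it is a ratio with an exact counting interval of 95%. Intervals and floors cover counting error only. Gene types and positions came from GENCODE M1 on mm9, which held 722 of the members, and sequences from the NCBIM37 (mm9) genome. In 5hmC a filter of 10 input reads and a pseudocount of 1 read were used, with Python 3.11.15 and scipy 1.17.1.

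Named genes were the largest called changes of each comparison among members with at least 100 reads whose libraries did not overlap between groups (for differences of effects, without that condition), the highest levels, the largest 5hmC changes with at least 30 input reads, every member of the fixed gene lists and the targeted genes. One such member is not reported here. The members and lists were chosen with earlier results of these data known. Scripts were tested on simulated counts with 200 changed features.

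Same-numbered WT shEmpty and shKap1 libraries deviated together, with correlations from 0.12 to 0.277 over genes, as did WT and DNMT TKO shEmpty (0.138 to 0.32), so their numbers pair them. The pairing comes from the values, as no label says what a number marks.

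Alternatives covered scaling, filters, limma-voom (limma 3.58.1, the study's test), DESeq2 1.42.0, fold threshold, window, replicate block, libraries in the fit and leaving out each library. The 4 hMeDIP libraries of replicate 2 entered no comparison, because labels and file names give them different roles.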

Additional observations from a re-analysis of the deposited data

Results flagged for a closer look

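The knockdown effect differed from that in WT, by the interaction term of the edgeR fit, for 31 members in DNMT TKO and 26 in TET TKO. In DNMT TKO the largest gains over WT were of Angptl6 (log2 2.49), Gm6020 (2.27), Gm12056 (1.92) and Gm14323 (1.35), and the largest losses of Gm8113 (-5.19), Dcdc2a (-4.68), Pxt1 (-2.85) and Lekr1 (-2.78). Gm6020 stood at 2.83, 2.81 and 2.34 CPM in WT shEmpty and 0.457, 0.345 and 0.193 CPM in DNMT TKO shEmpty. In TET TKO the gains were of Gm8332 (2.64), Gm8038 (2.52), Gm10807 (2.42) and Tdpoz3 (2.36), and the losses of Olfr335-ps (-4.43), Prss45 (-3.73), Gm8113 (-3.70) and Dcdc2a (-3.67). Gm8113, Olfr335-ps and Prss45 had 1 or 2 reads over the WT shEmpty libraries. The Gm8113 model lies within an endogenous retrovirus integrant, as given above. Without WT shEmpty replicate 2 the values of Gm8113 were -6.98 and -5.49, of Olfr335-ps -7.0 and of Prss45 -5.53, and without replicate 3 that of Olfr335-ps was -3.84. In DNMT TKO Gm8113 was at -4.52 (adjusted p = 0.054) without DNMT TKO shEmpty replicate 2 and at -5.93 without shKap1 replicate 3, and Gm12056 at 2.51 without shEmpty replicate 2. Gm12056 and Gm14323 lost their calls without WT shEmpty replicate 2 (adjusted p = 0.054 and 0.059). In TET TKO the calls of Gm8038, Gm8332 and Prss45 were lost when any of several single libraries was left out, with adjusted p up to 0.17, 0.15 and 0.12, as were those of Gm10807 (up to 0.12) and Gm8113 (up to 0.085). Under limma-voom Gm8038 and Gm10807 lost their calls (adjusted p = 0.068 and 0.053), and without a filter on reads Gm8332 did (adjusted p = 0.074).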

How the results depend on the processing

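Leaving out 1 library at a time gave 111 to 118 members up and 8 to 9 down in WT (125 and 8 with all), 82 to 87 and 3 to 4 in DNMT TKO (90 and 3), 86 to 96 and 1 to 4 in TET TKO (107 and 3), 25 to 34 and 13 to 25 differences of effect in DNMT and TET TKO (31 and 26), 42 to 51 and 18 to 23 baseline differences up and down in DNMT TKO (50 and 21), 30 to 35 and 13 to 18 in TET TKO (35 and 19), 41 to 44 members up with H3K4me3 (45), 69 to 76 without (80), a median log2 knockdown change of members in WT of 0.61 to 0.802 (0.708) and 180 to 196 integrants up (203). In the same order, with no fold threshold the counts that moved by over 1.5 times were 15 down in WT, 9 down in DNMT TKO, 7 down in TET TKO, 56 and 42 differences of effect, 85 and 46, then 66 and 32 baseline differences, and 68 up with H3K4me3. With a filter of 160 reads 81, 57 and 70 members rose in the 3 genotypes, 46 of them without H3K4me3 in WT, and 109 integrants, with a median of 0.478, and with no filter the median was 0.484. With the start inside the region 49 rose and 3 fell in WT, 36 rose in DNMT TKO and 45 in TET TKO, effects differed for 14 and 10, baselines for 14 and 9, then 13 and 10, and 13 rose with H3K4me3, 36 without, beside 24 integrants. A window of 1 kb gave 16 differences of effect in TET TKO, 33 higher in DNMT TKO and a median of 1.145. A window of 5 kb gave 215 and 21, 187 and 6, and 187 and 12 up and down, 67 and 56 differences of effect, 88 and 53, then 68 and 36 baseline differences, 83 and 132 up with and without H3K4me3, and a median of 0.481. That window added 376 tested genes to the 340, and 117 were tested with the start inside the region. The filter of 160 reads left 15676 of 20321 genes tested. Counts under other windows and filters are thus over other numbers of tested genes and do not compare as shares. H3K4me3 from both peak lists above their median score left 25 members up with the mark. Without chromosomes 6, 8 and 11, chosen after seeing the data, 11 of 255 tested members were lower in DNMT TKO (4.31%, against 6.18% of 340 with all). The median 5hmC change over regions at member starts was 0.25 with H3K4me3 totals, 0.27 without the largest region and 0.525 without input, and over those without a KAP1 region it turned from 0.25 to -0.13 and -0.11 under the first 2. The replicate block gave 125 members up in WT and moved no count by over 1.5 times. For 97 values of named genes the alternatives kept the side of the threshold 1258 times and lost a call 43 times, in 11 of the values. The cause was not tested. Depth limits genes under 1 CPM most, and 5hmC has 1 library per group.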

Other observations

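The 4 hMeDIP libraries whose labels and file names give them different roles held 10261271, 5849673, 12571208 and 6213882 reads over the region sets. The regions at member starts took 1.42%, 1.53%, 1.76% and 1.48% of those reads. In the libraries used above the shares were 1.55% and 1.48% in the inputs and 1.6% and 1.91% in the 5hmC libraries of shEmpty and shKap1.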
